A study of Homo sapiens with 12 samples.

Results

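The cyclins A, B, E and F and the kinases CDK1 and CDK2 were followed as transcripts in MCF10-A cells, an immortal but untransformed line of human breast epithelium. The 8 genes (CCNA2, CCNB1, CCNB2, CCNE1, CCNE2, CCNF, CDK1 and CDK2) were taken by name from 57133 gene names, and all 8 passed the filter on low counts. The cells carried a doxycycline-inducible gene for the yellow fluorescent protein mVenus fused to p16, for mVenus fused to p21, or for mVenus alone. The 4 groups were p16 cells given 100 nM Torin2, a chemical inhibitor of the kinase mTOR, p21 cells, p16 cells, and mVenus cells as the control, with 3 biological replicates in each. Every group received 50 ng/ml doxycycline, which began 20 hours after seeding, and was collected at day 5 of induction. The medium of every group held 20 ng/ml of the growth factor EGF and 5% horse serum. The protocol adds DMSO or Torin2 a day into induction, and Torin2 is stated for p16 cells only, so its effect in p21 or mVenus cells was not measured. Whether the lines are clones or pools is not given in the sources used here.

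A cyclin-dependent kinase is active only when a cyclin is bound, and cells pass through their division cycle as one cyclin replaces another. Cyclin E with CDK2 acts at entry into DNA replication, cyclin A with CDK2 and then CDK1 carries the cell through replication towards mitosis, and cyclin B with CDK1 drives mitosis. Cyclin F is not known to activate a kinase and serves instead as the substrate-binding part of an SCF ubiquitin ligase. The inhibitor p16 blocks CDK4 and CDK6, the kinases of the D cyclins, whereas p21 binds CDK2 complexes as well. Both keep the retinoblastoma family proteins active, and these hold E2F and DREAM target genes, to which most of these 8 genes belong, at a low level.

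Poly(A) RNA was sequenced, and each library held 13168749 to 18321114 reads assigned to genes. Replicates correlated at r of at least 0.992 across genes, and no pair was identical within sampling noise. In every group 9 of 9 basal epithelial markers had counts, and they summed to far higher levels than the fibroblast, leukocyte and endothelial markers. The summed level of the basal epithelial markers was 13281 to 13639 CPM (counts scaled to a common library size) with Torin2, 11348 to 11684 in p21, 18727 to 19639 in p16 and 8420 to 8870 in mVenus cells. Fibroblast markers, of which 4 of 5 had counts in each group, summed to 4.55 to 5.44 CPM with Torin2, 110.5 to 116.5 in p21, 6.70 to 7.29 in p16 and 19.8 to 20.3 in mVenus cells, with COL3A1 at 0 in p21 and mVenus cells, LUM in p16 and PDGFRA with Torin2. Leukocyte markers summed to 13.5 to 17.0 CPM with Torin2, 20.9 to 24.4 in p21, 34.6 to 38.5 in p16 and 12.9 to 17.6 in mVenus cells. Of these 5 markers, 1 had counts with Torin2, 1 in p21, 2 in p16 and 3 in mVenus cells. CD3E and TYROBP were at 0 in every group, and PTPRC was at 0 in every group but mVenus. Endothelial markers, with counts for 4 of 4, reached at most 4.67 CPM. The share of counts from the mitochondrial genome was 6.02% ± 0.597 with Torin2, 6.49% ± 0.456 in p21, 6.62% ± 0.290 in p16 and 3.87% ± 0.0305 in mVenus cells (SD, n = 3 each). The part of these differences in the results that follow was not tested. CDKN1A, the gene of p21, averaged 888 CPM in p21 cells and 711 CPM in mVenus cells (log2 fold change 0.32 ± 0.04, SE). CDKN2A, the gene of p16, had 0 counts in all 12 libraries. Reads of a fusion transgene need not be counted under the native gene, so neither value sets the level of a transgene.

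Promoter sequence is shown first because cell cycle genes carry short elements by which DREAM and E2F complexes are known to act. RefSeq (GRCh38.p14) gave promoters for 6 of the 8 genes. The 250 bases before each transcription start were searched on both strands for the cell cycle homology region (CHR, TTTGAA, and its variants CTTGAA and TTTAAA), the CCAAT box bound by NF-Y, and an E2F core (TTTNNCGC). TTTAAA reads the same on both strands. In the sequences below, read 5′ to 3′ on the gene's strand, capitals mark every match.

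CDK1, downstream start (chr10:60778228-60778477, + strand): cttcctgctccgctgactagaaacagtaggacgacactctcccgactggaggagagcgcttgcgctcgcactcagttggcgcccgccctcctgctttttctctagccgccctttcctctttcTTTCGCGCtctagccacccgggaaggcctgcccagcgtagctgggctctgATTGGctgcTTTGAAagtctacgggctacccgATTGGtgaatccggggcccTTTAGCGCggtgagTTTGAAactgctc
CCNB2 (chr15:59104896-59105145, + strand): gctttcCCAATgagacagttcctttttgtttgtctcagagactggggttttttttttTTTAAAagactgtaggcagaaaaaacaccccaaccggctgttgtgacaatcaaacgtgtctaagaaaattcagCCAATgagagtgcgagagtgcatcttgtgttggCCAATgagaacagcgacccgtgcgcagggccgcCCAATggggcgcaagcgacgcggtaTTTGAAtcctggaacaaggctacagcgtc
CCNA2 (chr4:121823884-121824133, − strand): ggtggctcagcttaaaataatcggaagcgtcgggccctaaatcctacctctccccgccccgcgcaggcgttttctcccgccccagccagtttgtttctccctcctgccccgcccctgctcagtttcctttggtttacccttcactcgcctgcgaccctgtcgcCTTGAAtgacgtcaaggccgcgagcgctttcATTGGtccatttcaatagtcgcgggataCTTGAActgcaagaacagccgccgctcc
CCNB1 (chr5:69166900-69167149, + strand): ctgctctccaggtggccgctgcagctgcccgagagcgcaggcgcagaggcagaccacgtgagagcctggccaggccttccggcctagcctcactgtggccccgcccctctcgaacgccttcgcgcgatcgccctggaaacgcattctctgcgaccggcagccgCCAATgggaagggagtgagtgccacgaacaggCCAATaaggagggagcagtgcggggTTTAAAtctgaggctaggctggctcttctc
CCNE1 (chr19:29811741-29811990, + strand): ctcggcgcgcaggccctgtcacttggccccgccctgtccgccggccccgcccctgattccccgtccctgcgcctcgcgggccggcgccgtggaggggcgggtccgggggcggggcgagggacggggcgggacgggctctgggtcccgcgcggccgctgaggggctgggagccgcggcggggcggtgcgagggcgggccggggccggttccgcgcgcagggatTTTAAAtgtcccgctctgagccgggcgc

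CDK1 held TTTGAA at bases -69 to -64 and -13 to -8 from the start, with CCAAT on the opposite strand at -78 to -74 and -46 to -42. It also held the E2F core at -128 to -121 and -27 to -20. RefSeq gives CDK1 an upstream start too, next to the start of the gene in GENCODE. Its window (chr10:60778081-60778330, + strand), not printed, held TTTGAA at -161 to -156, CCAAT at -150 to -146 and TTTAAA at -131 to -126, and no E2F core. CCNB2 held TTTGAA at -29 to -24, behind 4 CCAAT boxes, and CCNA2 held CTTGAA at -87 to -82 and -28 to -23. In CCNB1 and CCNE1 the match was TTTAAA, at -30 to -25 and -28 to -23. CCNE1 was the gene with no CCAAT in this window. The windows of CCNA2, CCNB1, CCNB2 and CCNE1 held no E2F core. The promoter of CCNF, not printed, held 4 CCAAT boxes, TTTGAA at -85 to -80 and an E2F core at -170 to -163. Among 35116 RefSeq promoters, 13.3% held TTTGAA, 9.52% CTTGAA, 11.3% TTTAAA, 32.0% CCAAT and 5.92% the E2F core. A match describes the letters only and does not show that a factor binds.

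All 8 transcripts were lower in p16 cells and in p21 cells than in mVenus cells. Every library received doxycycline, so induction of p16 or p21 and other differences between the cell lines cannot be told apart. In p16 cells the log2 fold changes over mVenus ran from -4.29 to -0.72 with a median of -2.34, against a median of -0.0036 over the 14504 genes tested. In p21 cells they ran from -5.06 to -1.01 with a median of -3.04, against -0.0037 over all genes. All 8 were called lower in each comparison, at an adjusted p under 0.05 from edgeR's quasi-likelihood test with Benjamini-Hochberg adjustment over all tested genes. Of all tested genes, 32.8% were called lower and 30.9% higher in p16, and 28.3% lower and 28.2% higher in p21. For all 8 genes the 3 p16 libraries and the 3 p21 libraries lay apart from the 3 mVenus libraries. So they did for 65.9% of tested genes in p16 and 64.4% in p21. Both comparisons share the mVenus libraries. In RNA from whole cultures, fewer cycling cells and less RNA per cycling cell cannot be told apart.

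**Figure D1:**
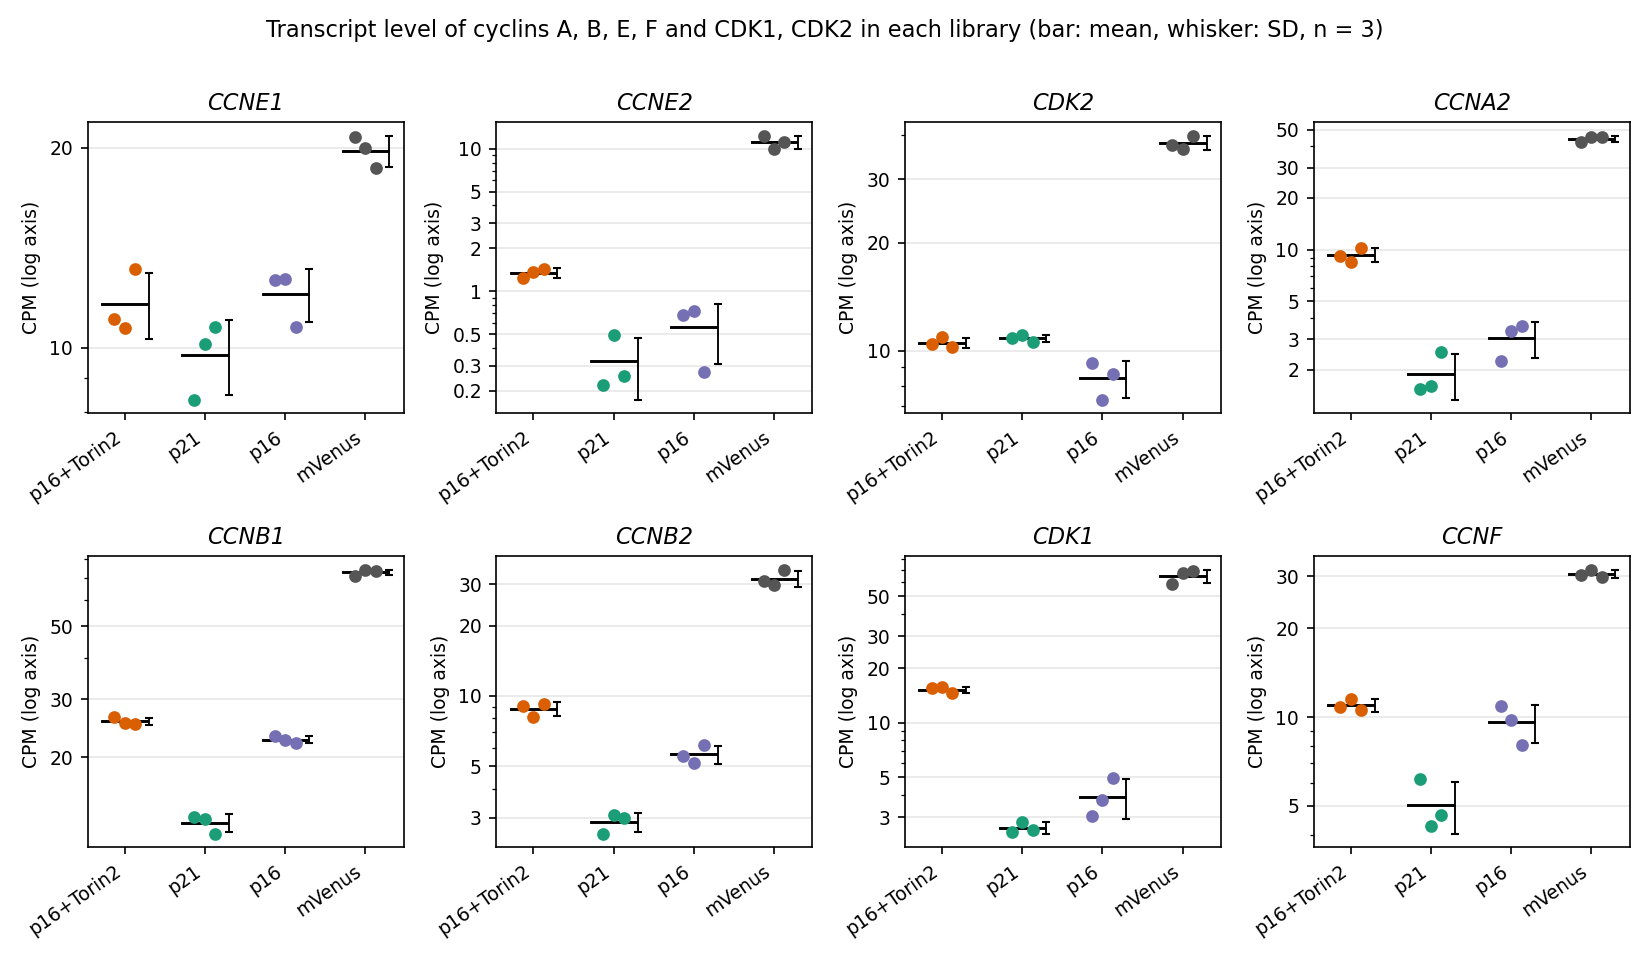
Level of each transcript in every library, in CPM on a log axis that differs between panels; points are libraries, bars group means and whiskers SD (n = 3). The mVenus libraries stand above all others in each panel; the order of the other 3 groups differs between genes, and CDK2 is lowest in p16 cells.

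CCNE1 encodes cyclin E1 (chromosome 19, 29811898 to 29824308, plus strand; all locations are GENCODE 29 on GRCh38). It had 11.1, 10.7 and 13.2 CPM in p16 cells with Torin2, 8.36, 10.1 and 10.8 CPM in p21 cells and 12.6, 12.7 and 10.8 CPM in p16 cells, against 20.8, 20.0 and 18.7 CPM in mVenus cells. The mVenus libraries stood above all others, while the other 3 groups lay close together. Its decline was the smallest of the 8 genes, with log2 fold changes over mVenus of -1.01 ± 0.10 (SE) in p21 and -0.72 ± 0.09 in p16 (edgeR adjusted p 2.21e-08 and 1.28e-06). Its level with Torin2 was 58.8% of the mVenus mean, that in p21 49.2% and that in p16 60.7%.

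CCNE2, the paralog cyclin E2 (chromosome 8, 94879770 to 94896678, minus strand), differed from CCNE1 in the size of its decline. It had 1.24, 1.36 and 1.44 CPM with Torin2, 0.220, 0.495 and 0.255 CPM in p21 and 0.685, 0.724 and 0.271 CPM in p16 cells, against 12.4, 9.92 and 11.2 CPM in mVenus cells. The Torin2 libraries lay between mVenus and the rest, and the p21 and p16 libraries overlapped. The log2 fold change over mVenus was -5.06 ± 0.25 in p21 and -4.29 ± 0.22 in p16 (edgeR adjusted p 3.71e-13 and 7.40e-13), the largest declines of the 8 genes. These rest on 15 counts in all p21 libraries and 26 in all p16 libraries, against 578 in mVenus libraries. At such counts both SE fall below counting noise, so they are too narrow. Of the exonic bases of CCNE2, 37.1% are shared with INTS8 or AC087752.4, and reads there could not be assigned to one gene.

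CDK2 is the kinase partner of the E and A cyclins (chromosome 12, 55966769 to 55972784, plus strand). It had 10.4, 10.9 and 10.2 CPM with Torin2, 10.8, 11.1 and 10.6 CPM in p21 and 9.22, 7.30 and 8.59 CPM in p16 cells, against 37.5, 36.5 and 39.8 CPM in mVenus cells. Torin2 and p21 libraries overlapped, and every p16 library lay below them. CDK2 was the gene of the 8 that was lower in p16 than in p21 cells. Of its exonic bases, 16.8% are shared with AC025162.1 or PMEL. Its log2 fold change over mVenus was -1.81 ± 0.07 in p21 and -2.18 ± 0.08 in p16 (edgeR adjusted p 1.47e-14 and 9.59e-16).

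CCNA2 encodes cyclin A2 (chromosome 4, 121816444 to 121823933, minus strand). Its levels were 9.24, 8.46 and 10.2 CPM with Torin2, 1.54, 1.61 and 2.55 CPM in p21 and 2.24, 3.36 and 3.59 CPM in p16 cells, against 42.2, 45.4 and 45.5 CPM in mVenus cells. Torin2 libraries formed a middle level with no overlap on either side, while the highest p21 library exceeded the lowest p16 library. Of its exonic bases, 9.08% are shared with EXOSC9. The log2 fold change over mVenus was -4.53 ± 0.13 in p21 and -3.86 ± 0.12 in p16 (edgeR adjusted p 4.91e-17 and 1.07e-16). The germline paralog CCNA1 averaged 1.47 CPM in p21, 3.42 in p16 and 4.37 in mVenus cells, and was called lower in p21 alone of the 2 comparisons with mVenus (log2 fold change -1.56 in p21 and -0.35 in p16).

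CDK1 is the mitotic kinase (chromosome 10, 60778331 to 60794852, plus strand). Its levels were 15.5, 15.7 and 14.5 CPM with Torin2, 2.49, 2.84 and 2.55 CPM in p21 and 3.05, 3.75 and 4.94 CPM in p16 cells, against 58.7, 67.1 and 68.6 CPM in mVenus cells. No library of any group overlapped another group. Over mVenus, CDK1 had a log2 fold change of -4.61 ± 0.11 in p21 and -4.05 ± 0.10 in p16 (edgeR adjusted p 4.54e-18 and 6.44e-18). The p21 mean was 4.05% and the p16 mean 6.04% of the mVenus mean.

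CCNB1, cyclin B1 (chromosome 5, 69167010 to 69178245, plus strand), fell less than its kinase. It had 26.5, 25.4 and 25.2 CPM with Torin2, 13.2, 12.98 and 11.7 CPM in p21 and 23.2, 22.5 and 22.1 CPM in p16 cells, against 71.1, 73.8 and 73.4 CPM in mVenus cells. The groups did not overlap, and p16 libraries stood nearer to Torin2 than to p21 libraries. Relative to mVenus cells, CCNB1 changed by a log2 fold change of -2.53 ± 0.06 in p21 and -1.69 ± 0.05 in p16 (edgeR adjusted p 1.97e-18 and 1.44e-16).

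CCNB2, cyclin B2 (chromosome 15, 59105078 to 59125045, plus strand), had 9.04, 8.14 and 9.23 CPM with Torin2, 2.57, 3.09 and 2.99 CPM in p21 and 5.54, 5.13 and 6.16 CPM in p16 cells, against 30.9, 29.7 and 34.7 CPM in mVenus cells. Again no groups overlapped. CCNB2 had a log2 fold change over mVenus of -3.46 ± 0.10 in p21 and -2.50 ± 0.09 in p16 (edgeR adjusted p 1.42e-16 and 2.25e-15). Its pseudogene CCNB2P1 had 2 counts over all 12 libraries.

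CCNF, cyclin F (chromosome 16, 2429394 to 2458854, plus strand), had 10.8, 11.6 and 10.5 CPM with Torin2, 6.16, 4.27 and 4.65 CPM in p21 and 10.9, 9.80 and 8.05 CPM in p16 cells, against 30.3, 31.6 and 29.9 CPM in mVenus cells. Torin2 and p16 libraries overlapped, and all p21 libraries lay below both. Of its exonic bases, 11.8% are shared with AC106820.5 or AC106820.6. The log2 fold change over mVenus was -2.62 ± 0.11 in p21 and -1.67 ± 0.09 in p16 (edgeR adjusted p 2.03e-14 and 3.04e-12).

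**Figure D2:**
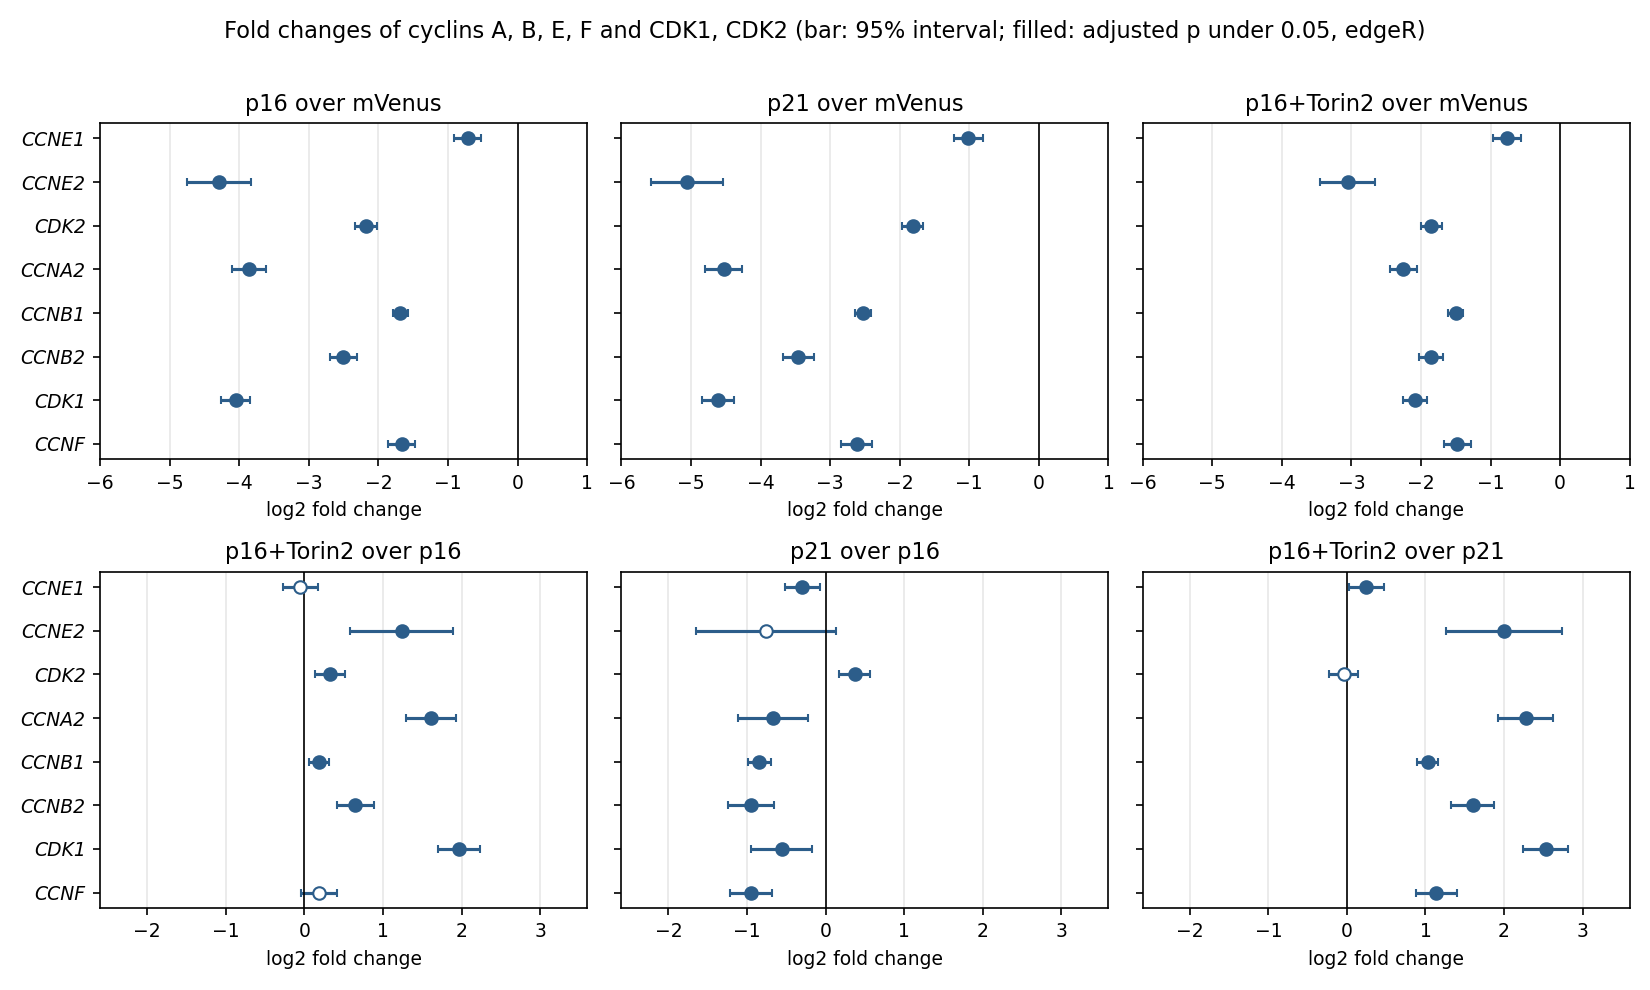
Log2 fold change of each gene in the 6 comparisons, with bars for the 95% interval and filled points for an adjusted p under 0.05; the lower row has its own scale. All points lie below 0 in the 3 comparisons with mVenus, and CDK1 and CCNA2 lie farthest above 0 with Torin2 over p16 cells.

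Torin2 was given to p16 cells, and its comparison is with p16 cells without it. Of the 8 genes, 6 were higher and 0 lower with Torin2, where 30.3% of all tested genes were called higher and 29% lower. The libraries lay apart for those 6 genes and for 62% of tested genes. The median log2 fold change of the 8 was 0.49, against 0.023 over all tested genes. CDK1 rose most, by a log2 fold change of 1.97 ± 0.13, to 15.2 ± 0.614 CPM with Torin2, against 3.91 ± 0.954 CPM in p16 cells (SD, n = 3 each; edgeR adjusted p 4.56e-11). CCNA2 rose by 1.61 ± 0.15, CCNE2 by 1.24 ± 0.31 and CCNB2 by 0.65 ± 0.11 (edgeR adjusted p 1.27e-08, 0.00195 and 4.55e-05). The rises of CDK2 (0.33 ± 0.09, edgeR adjusted p 0.00504) and CCNB1 (0.19 ± 0.06, adjusted p 0.0108) were small. Without p16 replicate 2 the change of CDK2 was 0.24 (adjusted p 0.0509). For CCNB1 the adjusted p was 0.0755 with no filter on low counts and 0.0612 with DESeq2.

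CCNE1 and CCNF were not called with Torin2. The log2 fold change of CCNE1 was -0.05, with a 95% interval of -0.27 to 0.17 (edgeR adjusted p 0.705), and without Torin2 replicate 2 it was 0.0073. For CCNF it was 0.19, with an interval of -0.041 to 0.42 (adjusted p 0.148), and without p16 replicate 1 it was 0.30 (adjusted p 0.0398). A missed threshold does not show that these genes stayed the same.

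Torin2 did not bring any of the 8 genes to the level of mVenus cells: all 8 were called lower with Torin2 than in mVenus cells, where 36.1% of tested genes were lower and 31.2% higher. The libraries lay apart for all 8 and for 71.2% of tested genes. The log2 fold changes ran from -3.05 (CCNE2) to -0.77 (CCNE1), with a median of -1.85 against -0.032 over all genes. CDK1 with Torin2 stood at 23.5% of the mVenus mean, CCNA2 at 20.97%, CCNE2 at 12.0%, CDK2 and CCNB2 at 27.7% each, CCNB1 at 35.3% and CCNF at 35.9%.

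Cells with p21 were compared directly with p16 cells. Here 6 of the 8 genes were lower, with 27.2% of tested genes lower, and CDK2 was higher, with 27.2% higher. The libraries lay apart for 6 of the 8 and for 58.9% of tested genes. The median log2 fold change of the 8 was -0.72, against -0.013 over all genes. CCNB2 and CCNF fell most, each by 0.95 on the log2 scale (SE 0.14 and 0.13; edgeR adjusted p 9.28e-06 and 3.06e-06), and CCNB1 fell by 0.84 (SE 0.07; adjusted p 1.33e-09). CDK2 was higher by a log2 fold change of 0.37 ± 0.09 (edgeR adjusted p 0.00216). Its level was 10.8 ± 0.253 CPM in p21 cells and 8.37 ± 0.977 CPM in p16 cells (SD, n = 3 each).

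The other differences between p21 and p16 cells changed their call when single libraries were left out. CCNA2 was lower in p21 cells by a log2 fold change of -0.67 ± 0.21 (edgeR adjusted p 0.0118), but the adjusted p was 0.0572 without p16 replicate 3, 0.0553 without p21 replicate 1 and 0.0638 without p21 replicate 2. CDK1 differed by -0.56 ± 0.19 (adjusted p 0.0149), and by -0.36 without p16 replicate 3 (adjusted p 0.128). CCNE1 differed by -0.30 ± 0.11 (adjusted p 0.0243), and the adjusted p was 0.0792, 0.0868 and 0.141 without p16 replicate 1, p16 replicate 2 and p21 replicate 1. CCNE2 was not called (-0.76, 95% interval -1.65 to 0.13, edgeR adjusted p 0.142), and was -1.08 without p16 replicate 3 (adjusted p 0.0425).

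With Torin2 over p21, 7 of the 8 genes were higher, where 33.2% of tested genes were higher and 33.3% lower. The libraries lay apart for 6 of the 8 and for 70.6% of tested genes. The median log2 fold change was 1.37, against 0.010 over all genes. CDK1 differed by 2.53 ± 0.14 and CCNA2 by 2.28 ± 0.17 (edgeR adjusted p 2.11e-12 and 2.17e-10), and CCNE2, CCNB2, CCNF and CCNB1 by between 1.03 (CCNB1) and 2.004 (CCNE2). CCNE1 differed by 0.25 ± 0.11 (adjusted p 0.0493), a call that ended under 8 of 12 alternatives. It was 0.15 without Torin2 replicate 3 (adjusted p 0.258), 0.15 without p21 replicate 1 (0.241) and 0.28 without p21 replicate 2 (0.0655). CDK2 did not pass (-0.04, 95% interval -0.23 to 0.14, edgeR adjusted p 0.698).

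Ordering the groups from low to high thus gave p21, p16, Torin2, mVenus for CDK1, CCNA2, CCNB1 and CCNB2, with each neighbouring pair called different in the main fit. Only CCNB2 kept each of these calls under every alternative. The calls between p21 and p16 ended for CCNA2 and CDK1 when single libraries were left out. The call of CCNB1 between p16 and Torin2 ended with no filter on low counts and with DESeq2. For CCNF, Torin2 and p16 did not differ beyond the test. For CCNE2 the p16 and p21 groups did not, and for CCNE1 p16 and Torin2 did not. The call of CCNE1 between p21 and p16 ended when single libraries were left out. Its call between p21 and Torin2 ended under 8 of 12 alternatives. For CDK2 the order was p16, then Torin2 and p21 without a called difference, then mVenus. Its call between p16 and Torin2 ended without p16 replicate 2.

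Levels of different genes were set side by side per kilobase of exon (RPKM). CCNB1 was the most abundant of the 8 in every group, at 10.1 ± 0.264 RPKM with Torin2, 4.94 ± 0.314 in p21, 8.83 ± 0.208 in p16 and 28.5 ± 0.578 in mVenus cells (SD, n = 3 each). CCNE2 was the least abundant in every group, at 0.306 ± 0.0234, 0.0735 ± 0.0340, 0.127 ± 0.0571 and 2.54 ± 0.277 RPKM in the same groups. CDK1 ranked 3 of 8 with Torin2, 7 in p21, 7 in p16 and 2 in mVenus cells. CCNE1 moved the other way, ranking 2 with Torin2, in p21 and in p16, and 6 in mVenus cells.

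Ratios of a pair of these transcripts within a library do not depend on how libraries are scaled. Cyclin B1 transcript per CDK1 transcript (CCNB1/CDK1 per exonic length) was 2.59 ± 0.0913 with Torin2, 7.41 ± 0.632 in p21 and 9.26 ± 2.39 in p16 cells, against 1.73 ± 0.114 in mVenus cells (SD, n = 3 each). CDK1/CDK2 was 1.44 ± 0.0334 with Torin2, 0.240 ± 0.0136 in p21 and 0.469 ± 0.126 in p16 cells, against 1.69 ± 0.137 in mVenus cells. CCNE1/CDK2 was 1.70 ± 0.242 with Torin2, 1.38 ± 0.190 in p21 and 2.22 ± 0.387 in p16 cells, against 0.800 ± 0.0721 in mVenus cells. The CCNB1/CDK1 ratio was thus highest in p16 and p21 cells, and CDK1 exceeded CDK2 per exonic length with Torin2 and in mVenus cells only. Which gene of a pair exceeds the other depends on the exonic length, which counts all annotated exons. Of the exonic bases of CDK2, 16.8% are shared with other genes.

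CCNA2/CDK2 was 1.24 ± 0.156 with Torin2, 0.245 ± 0.0783 in p21 and 0.520 ± 0.160 in p16 cells, against 1.63 ± 0.0911 in mVenus cells. CCNE2/CCNE1 was 0.0672 ± 0.00536 with Torin2, 0.0191 ± 0.00800 in p21 and 0.0264 ± 0.0102 in p16 cells, against 0.327 ± 0.0339 in mVenus cells. CCNB2/CCNB1 was 0.313 ± 0.0212 with Torin2, 0.209 ± 0.0287 in p21 and 0.227 ± 0.0241 in p16 cells, against 0.399 ± 0.0322 in mVenus cells. CCNF/CCNA2 was 0.527 ± 0.0745 with Torin2, 1.25 ± 0.487 in p21 and 1.48 ± 0.602 in p16 cells, against 0.306 ± 0.0138 in mVenus cells. For all 7 ratios, the Torin2, p21 and p16 groups were each free of overlap with mVenus libraries. An exact two-sided permutation test of 3 against 3 libraries gave p 0.1 for each of these, the smallest p it can give, and 0.117 after Benjamini-Hochberg adjustment over 42 ratio comparisons, so no ratio passed 0.05. The share without overlap among ratios of other gene pairs was not measured, so the lack of overlap has no background here.

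**Figure D3:**
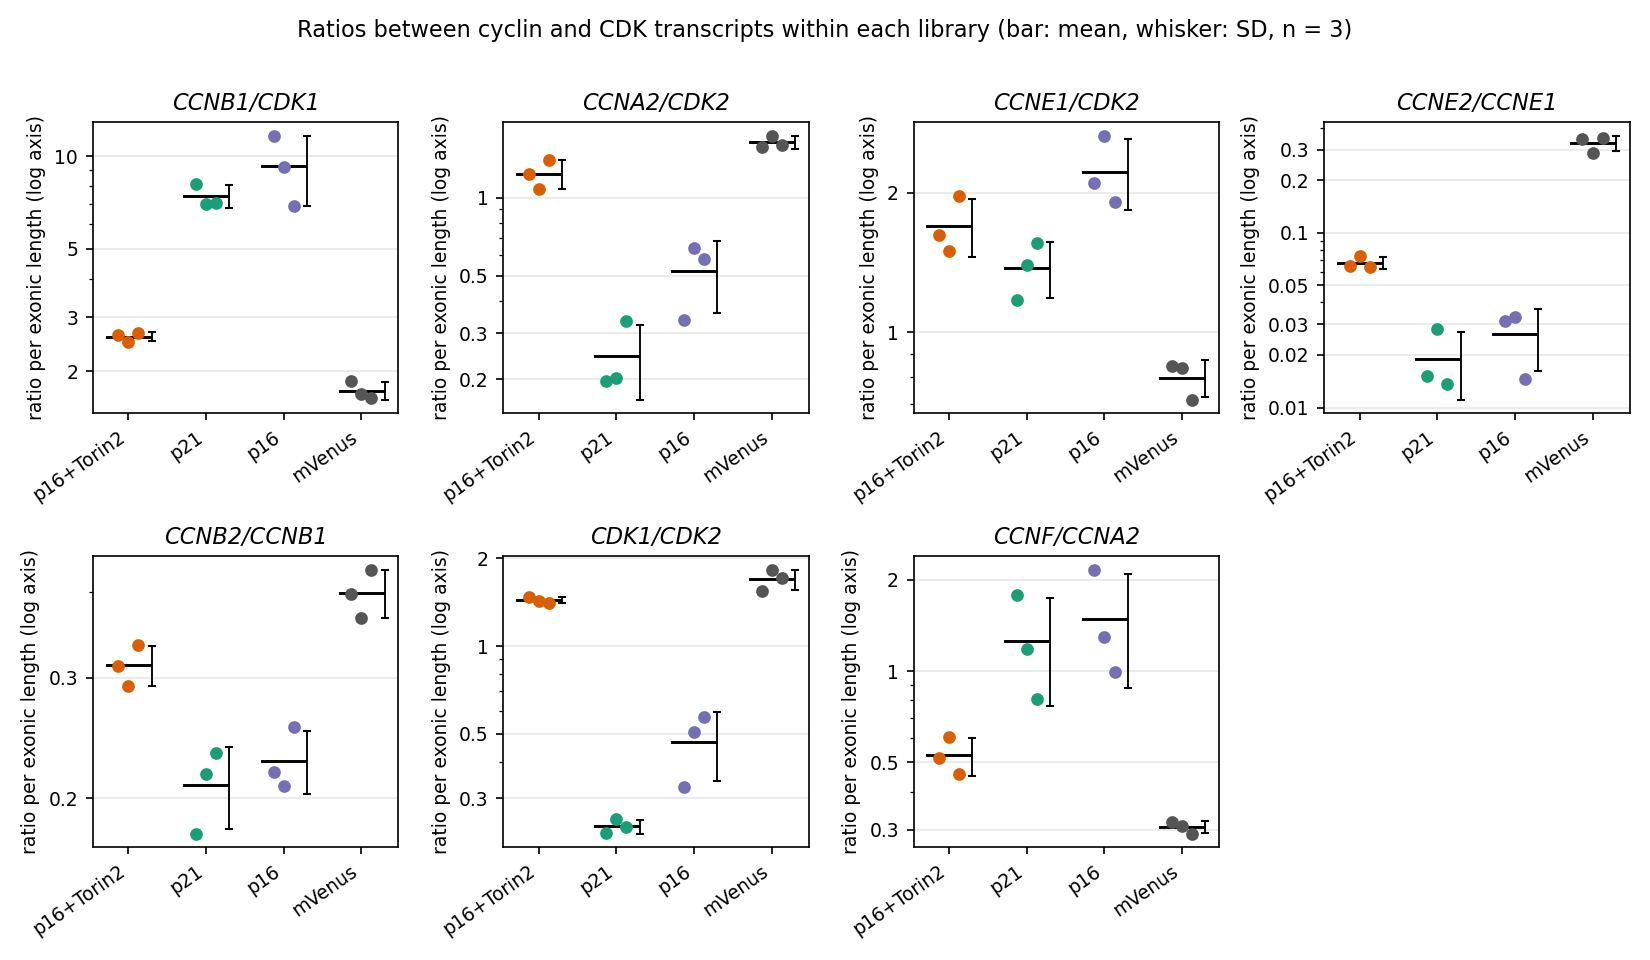
Ratio of 7 pairs of transcripts within each library, per exonic length, on log axes that differ between panels; points are libraries, bars means and whiskers SD (n = 3). CCNB1/CDK1, CCNE1/CDK2 and CCNF/CCNA2 are lowest in mVenus libraries, and the other 4 ratios are highest there.

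The regulators of these genes and kinases were taken as 7 lists of 112 genes. These lists were chosen with earlier results of these data known, so their shares of called genes are a description and not independent evidence. Genes were named in each comparison by the size of their change. A gene given for a single group may therefore have changed in the other group too. The counts of called genes in these lists stand against many calls overall: of all tested genes, 28.2% were higher and 28.3% lower in p21 over mVenus, 30.9% and 32.8% in p16 over mVenus, 30.3% and 29% in Torin2 over p16, 27.2% and 27.2% in p21 over p16, 33.2% and 33.3% in Torin2 over p21, and 31.2% and 36.1% in Torin2 over mVenus. Among transcription factors and repressors of cyclin genes, 3 of 22 tested were higher and 15 lower in p21 over mVenus (median log2 fold change -0.43), and 3 were higher and 12 lower in p16 (median -0.23). The share of the list called lower was thus 68.2% in p21 and 54.5% in p16, against 28.3% and 32.8% of all tested genes. MYBL2, the B-MYB activator of mitotic genes, averaged 0.587 CPM in p21, 2.58 in p16 and 75.0 in mVenus cells, with log2 fold changes of -7.02 ± 0.13 and -4.85 ± 0.10 (edgeR adjusted p 2.52e-19 and 3.87e-19). E2F1, an activator of replication genes, fell by 4.36 in p16 cells, and E2F8, a repressive E2F, fell by 5.47 in p21 cells. RBL2, the p130 protein of DREAM, rose by 0.51 in p21 and 0.40 in p16. NFYB, a subunit of the CCAAT-binding factor NF-Y, averaged 126 CPM in p21, 34.3 in p16 and 23.2 in mVenus cells. Its log2 fold change over mVenus was 2.44 ± 0.06 in p21 and 0.56 ± 0.07 in p16 (edgeR adjusted p 1.31e-17 and 8.34e-07). Its partner NFYA was lower in p21 than in p16 cells (log2 fold change -0.81 ± 0.06; edgeR adjusted p 7.89e-10).

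With Torin2 over p16, 10 of these 22 were higher and 4 lower (median 0.16), or 45.5% and 18.2% of the list against 30.3% and 29% of all tested genes. RBL1, the p107 protein, rose by 1.59 and MYBL2 by 1.21, while NFYB fell by 0.21 and RBBP4, a histone-binding DREAM subunit, by 0.24. In p21 over p16, 5 were higher and 7 lower (median -0.09), 22.7% and 31.8% of the list and near the 27.2% of all genes in each direction, with NFYB higher by 1.88. In Torin2 over p21, 13 were higher and 4 lower (median 0.32), with MYBL2 higher by 3.38, FOXM1, a mitotic activator, by 1.41, and NFYB lower (-2.09). In Torin2 over mVenus, 4 were higher and 12 lower (median -0.27).

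Among activators and brakes of CDK1 and CDK2, 1 of 13 tested was higher and 9 lower in p21 over mVenus (median -1.18), and 1 was higher and 7 lower in p16 (median -0.38). The share called lower was 69.2% in p21 and 53.8% in p16, against 28.3% and 32.8% of all tested genes. PKMYT1, a kinase that inhibits CDK1, and CDC25C, a phosphatase that activates it, fell together. The log2 fold change of PKMYT1 was -5.16 in p21 and -3.98 in p16, and that of CDC25C -4.29 in p21 and -3.19 in p16. Of the exonic bases of PKMYT1, 31.6% are shared with PAQR4 or KREMEN2. CDC25B, another activating phosphatase, averaged 147 CPM with Torin2, 24.7 in p21, 88.1 in p16 and 73.8 in mVenus cells. It was higher with Torin2 than in mVenus cells by 0.999 ± 0.05 and lower in p21 than in p16 cells by a log2 fold change of -1.83 ± 0.05 (edgeR adjusted p 8.84e-14 and 2.00e-16). With Torin2 over p16, 6 of the list were higher and 3 lower (median 0.10; 46.2% and 23.1%, against 30.3% and 29% of all tested genes), with PKMYT1 higher by 1.77 and CKS1B, a small CDK-binding subunit, lower (-0.54). In p21 over p16, 1 was higher and 7 lower (median -0.27), with CKS1B lower (-1.36). In Torin2 over p21, 9 were higher and 2 lower (median 0.59), and in Torin2 over mVenus 2 were higher and 9 lower (median -0.48).

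The list of cyclin F targets held 6 genes whose products that protein is known to target, and the results below cover these genes only. In p21 over mVenus 6 of 6 were lower (median -4.14), where 28.3% of all tested genes were lower. In p16 over mVenus 6 of 6 were lower (median -3.20), where 32.8% of all tested genes were. RRM2, a ribonucleotide reductase subunit, averaged 12.3 CPM with Torin2, 1.33 in p21, 4.15 in p16 and 102 in mVenus cells. CDC6, a replication licensing factor, fell by 5.39 in p21, and EXO1, an exonuclease of DNA repair, fell by 4.06 in p16. With Torin2 over p16, 5 of 6 were higher (median 0.83) beside 30.3% of all tested genes, among them EXO1 by 1.61 and RRM2 by 1.58. In p21 over p16, 0 were higher and 3 lower (median -0.85), in Torin2 over p21 6 were higher (median 1.86), and in Torin2 over mVenus 6 were lower (median -2.27). NUSAP1 of this list shares 62.2% of its exonic bases with AC087721.2.

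Of 28 genes of the machinery that destroys cyclins, 7 were higher and 11 lower in p21 (median -0.057), and 6 were higher and 12 lower in p16 (median -0.11). As shares these were 25% and 39.3% in p21, against 28.2% and 28.3% of all tested genes, and 21.4% and 42.9% in p16, against 30.9% and 32.8%. UBE2C, the ubiquitin-conjugating enzyme of the anaphase-promoting complex, fell by 6.87 in p21 and 4.73 in p16, and CDC20, the activator of that complex in mitosis, fell by 5.33 in p21. BUB1B, a checkpoint inhibitor of that complex, fell by 3.26 in p16. UBE2D1 rose by 0.48 in p21 and 0.74 in p16, and the subunit ANAPC13 by 0.54 and 0.49. With Torin2 over p16, 9 were higher and 9 lower (median 0.052), 32.1% each and near the 30.3% and 29% of all tested genes. UBE2C was higher by 2.36 and BUB1B by 1.49, and SKP2, a ligase subunit that targets p27, was lower (-0.64). In p21 over p16, 6 were higher and 6 lower (median -0.032), with CDC20 lower (-2.64); in Torin2 over p21, 12 were higher and 8 lower (median 0.038), and in Torin2 over mVenus 6 were higher and 15 lower (median -0.21).

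**Figure D4:**
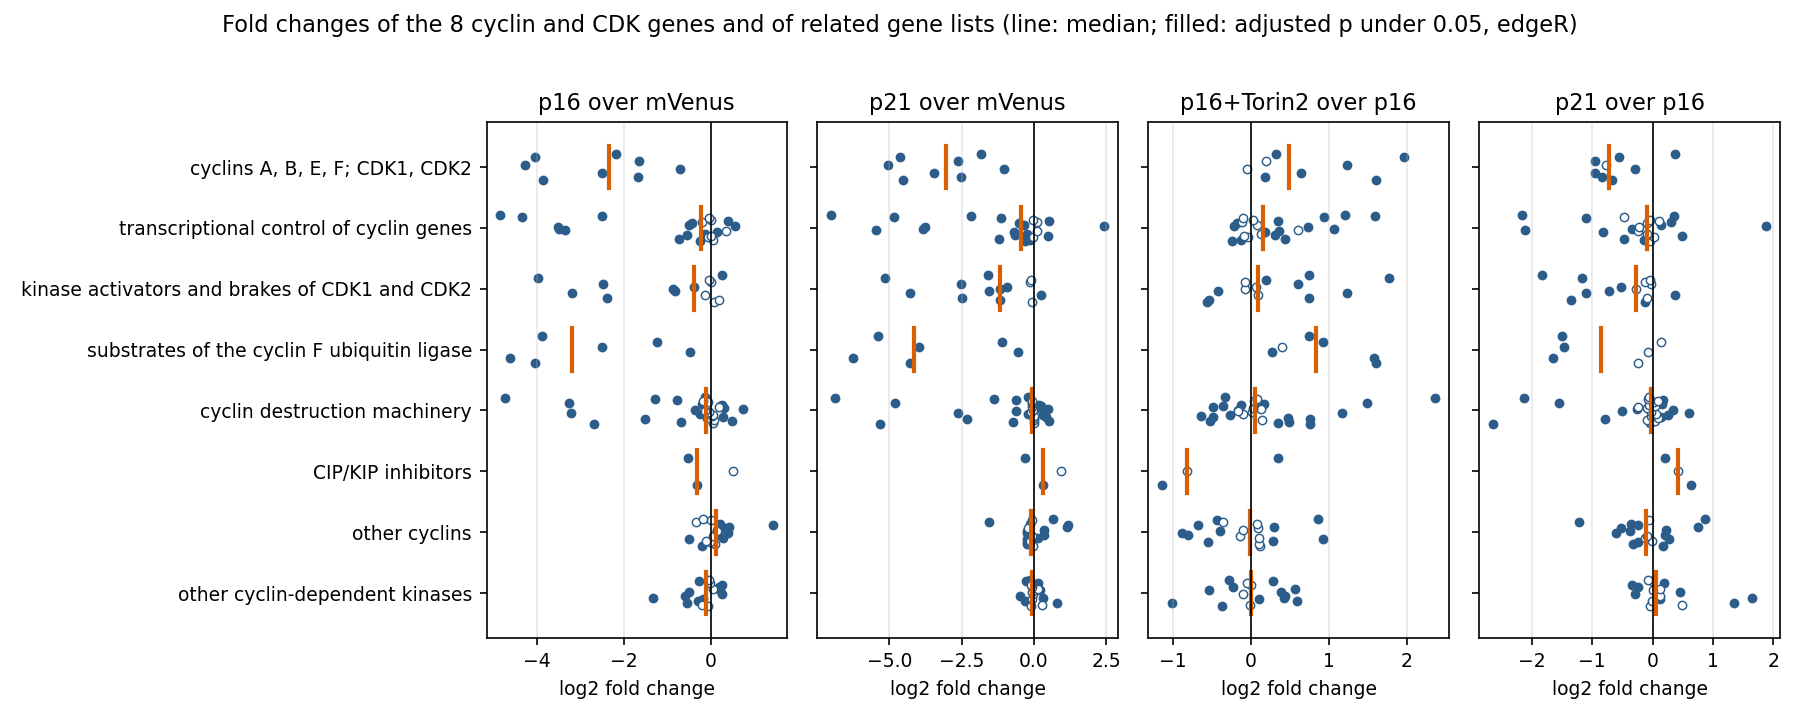
Log2 fold changes of the 8 genes and of the 7 lists in 4 comparisons; each point is a gene, filled where the adjusted p was under 0.05, and orange lines are medians. Medians of the 8 genes and of the cyclin F substrates lie farthest below 0 in p16 and p21 over mVenus, while those of other cyclins and other kinases run from -0.12 to 0.11.

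Of 18 other cyclins, 6 were higher and 7 lower in p21 over mVenus (median -0.099), and 8 were higher and 2 lower in p16 (median 0.11). As shares these were 33.3% and 38.9% in p21, against 28.2% and 28.3% of all tested genes, and 44.4% and 11.1% in p16, against 30.9% and 32.8%. CCND1 and CCND2, D cyclins that bind CDK4 and CDK6, rose by 1.15 and 1.197 in p21 and by 0.40 and 1.44 in p16. Of 16 other cyclin-dependent kinases, 4 were higher and 4 lower in p21 (median -0.055), and 4 were higher and 7 lower in p16 (median -0.12). These were 25% in each direction in p21, near the share of all tested genes, and 25% and 43.8% in p16. CDK14 was lower in p16 cells (-1.33) and higher in p21 cells (0.31) than in mVenus cells, and higher in p21 than in p16 cells by 1.65 ± 0.06 (edgeR adjusted p 1.14e-15). CDK6 fell by 0.48 in p21 and 0.60 in p16. With Torin2 over p16, 4 other cyclins were higher and 6 lower (median -0.0099), and 7 other kinases were higher and 5 lower (median -0.00097). Among them CCNI was higher by 0.93 and CDK4 by 0.57, though 43.2% of the exonic bases of CDK4 are shared with TSPAN31. In p21 over p16, 6 cyclins were higher and 8 lower, and 5 kinases higher and 3 lower. In Torin2 over p21 these counts were 7 and 7, and 5 and 6, and in Torin2 over mVenus 9 and 6, and 3 and 6.

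Of the CIP/KIP inhibitors, CDKN1A averaged 259 CPM with Torin2 and 570 CPM in p16 cells, a log2 fold change of -1.14 ± 0.04 (edgeR adjusted p 1.39e-14). In p21 cells, transcripts of the native gene and of the p21 transgene were not separated. CDKN1B, the gene of p27, fell by 0.32 in p21 and 0.52 in p16 cells and was higher with Torin2 than in p16 by 0.36. CDKN1C was under 1 CPM in every group, and was called lower in Torin2 over p21 cells.

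Across the 12 libraries the 8 genes followed one another, with Pearson's r of log2 CPM between 0.830 (CCNF and CDK2) and 0.991 (CCNA2 and CDK1). These values describe 4 separate groups of libraries and share their scaling. Among 10261 tested genes with a mean of at least 5 CPM, the nearest in pattern to CDK1 were HELLS, KNL1 and PTMS (r 0.996, 0.996 and 0.994), and to CCNA2 KIF20A, UHRF1 and HELLS (r 0.995, 0.993 and 0.992). Nearest to CCNB1 were TPX2, ASF1B and CDCA8, and to CCNB2 SPAG5, BUB1 and ANLN (r 0.993 to 0.995). Nearest to CCNE1 were POLD3, PTTG1 and RTN4R (r 0.982, 0.973 and 0.962), and to CCNE2 C1orf112, CDC45 and TACC3 (r 0.990, 0.987 and 0.987). CCNF lay nearest to ADTRP, CDCA8 and EHBP1L1 (r 0.990, 0.986 and 0.985), and CDK2 to NASP, ACTN1 and ANKLE2 (r 0.995, 0.995 and 0.994).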

How the data were processed

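Poly(A) RNA of MCF10-A cells was analysed in 12 libraries of 4 groups, 3 per group, as the sample titles give them. The authors deposited whole-number counts per gene name. Per the file headers these come from featureCounts 1.6.3 on GENCODE 29 exons with no option for strand or for overlapping genes, and by that program's default a read over bases common to several genes, on whichever strand, is left unassigned. The exonic length in the same deposited files gave RPKM. The submitters' processing notes name FastQC 0.11.3, HISAT2, Subread, DESeq2 and GRCh38.p7. The authors' comparison tables were not used here.

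After the filterByExpr filter, 14504 genes were left. One model of all 12 libraries, with TMM scaling and a coefficient per group, was fitted in edgeR 4.0.16 (R 4.3.3), and quasi-likelihood tests were two-sided, with Benjamini-Hochberg adjustment over all tested genes and a threshold of 0.05. CPM use TMM-scaled library sizes. The common biological coefficient of variation was 3.94%. Alternatives were DESeq2 1.42.0, other scalings, no filter, only the groups compared, a replicate block and leaving out each library. The labels call the replicates biological without saying whether they were grown separately, so p-values measure the spread between these libraries.

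Named genes were the 8 genes, CDKN1A, CDKN2A, the 3 nearest patterns per gene and, for each list and comparison, up to 2 called rises and 2 called falls of largest size whose higher group averaged 5 CPM or more. CCNA1, CDKN1C, NUSAP1 and the markers at 0 were named after their values were seen. The 8 genes and the lists were chosen with earlier results of these data known. Of the listed genes, CDK7, SPDYA, CNTD1, CDK3, CDK15 and E2F2 did not pass the filter.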

Additional observations from a re-analysis of the deposited data

Results flagged for a closer look

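The effect of p21 over mVenus differed from that of p16 over mVenus in 7 of the 8 genes, by edgeR's test of p21 against p16 libraries with Benjamini-Hochberg adjustment over all tested genes. In the same test 27.2% of all tested genes were called higher and 27.2% lower in p21 than in p16 cells. The shared mVenus libraries cancel in this difference. On the log2 scale the p21 effect minus the p16 effect was -0.67 for CCNA2, -0.84 for CCNB1, -0.95 for CCNB2, -0.30 for CCNE1, -0.95 for CCNF and -0.56 for CDK1, a larger decline in p21 cells. For CDK2 it was 0.37, a smaller decline in p21 cells. The calls of CCNA2, CDK1 and CCNE1 ended when single libraries were left out, as given with the comparison of p21 and p16 cells.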

How the results depend on the processing

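Of 48 gene and comparison pairs, 39 stayed on the same side of the threshold with the same direction under every alternative that gave an adjusted p. All 8 genes were called in each comparison with mVenus under every alternative. The number of the 8 called ranged from 5 to 7 in Torin2 over p16, 5 to 7 in p21 over p16, and 6 to 7 in Torin2 over p21. Genes called in all ranged from 8433 to 9601 in p16 over mVenus, 7353 to 8626 in p21 over mVenus, 7689 to 8692 in Torin2 over p16, 8909 to 10101 in Torin2 over mVenus, 7010 to 7996 in p21 over p16 and 8770 to 9903 in Torin2 over p21. CCNE1 in Torin2 over p16 ran from -0.15 to 0.0073 when single libraries were left out, changing sign without Torin2 replicate 2 (edgeR adjusted p 0.963). CCNE1 in Torin2 over p21 lost its call with DESeq2 size factors (adjusted p 0.0516), no filter (0.0690), DESeq2 (0.0940) and only the 6 libraries compared (0.0621). The log2 ratio CCNF/CCNA2 in p21 over p16 ran from -0.53 to 0.069 in the same way, with 0.039 without p21 replicate 3 and its highest value without p16 replicate 1. The cause was not tested. TPM in place of RPKM multiplied every level by 3.31 to 4.03. Other scalings moved the median of all genes by at most 0.031 on the log2 scale.

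Replicate numbers did not pair the libraries: deviations of same-numbered libraries from their group means correlated at -0.082 to 0.075 over 18 pairs, and 5 of 12 libraries correlated best with their own number. With the replicate block 9115 genes were called in p16 over mVenus (9238 without it), 8073 in p21 over mVenus, 8505 in Torin2 over p16, 9651 in Torin2 over mVenus, 7743 in p21 over p16 and 9524 in Torin2 over p21. Under the block CCNE1 in Torin2 over p21 was 0.25 (edgeR adjusted p 0.0659), and no other call of the 8 genes changed. Depth limits CCNE2 most, with 15 counts over the p21 libraries.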
